A study of Mus musculus with 31 samples.

Results

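The complement genes C1qa, C1qb, C1qc, C3, C4b, Cfp, Serping1, C3ar1 and C5ar1 were picked by symbol from the 3 count tables of the study, which makes 9 of 55401 genes. Complement is a cascade of mostly secreted proteins that marks cells, debris and protein deposits for uptake. The classical pathway starts when C1q, assembled from the A, B and C chains, binds a target and its proteases cleave C4 and then C3, while the alternative pathway amplifies C3 cleavage and properdin (Cfp) stabilises its convertase. C1 inhibitor (Serping1) blocks the C1 proteases, and the released fragments C3a and C5a act on the receptors C3ar1 and C5ar1. In the brain microglia are the main makers of C1q, and complement is known there for marking synapses and for its presence at β-amyloid plaques.

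RNA was sequenced in 31 libraries from mice aged 13 months on a C57BL/6J background. The study asked what the P522R variant of phospholipase C gamma 2 (PLCG2), a microglial signalling enzyme, changes in mice with and without β-amyloid pathology. The variant had been knocked in (KI) with CRISPR/Cas9, and the APPswe/PS1dE9 transgenes (APP/PS1), driven by the mouse prion protein promoter, were present in A+ mice and absent in A- mice. Temporo-occipital cortex came from females, with 1 A-/Pwt/wt, 4 A+/Pwt/wt and 4 A+/Pki/ki libraries of 25226544 to 43129427 counts. Microglia, taken from whole brain with CD11b beads, came from females without the transgenes (A-/Pwt/wt, n = 7), with them (A+/Pwt/wt, n = 4) and with both changes (A+/Pki/ki, n = 4). They also came from males without the transgenes, carrying wild-type PLCG2 (A-/Pwt/wt, n = 3) or the KI (A-/Pki/ki, n = 4), and the CD11b+ libraries held 16229831 to 25118180 counts. Each library is labelled with the number of its mouse, so the spread within a group is that between mice. Column names carried a batch tag in the microglia tables. All male libraries had tag 1, the female A+ libraries tag 2 and the female A- libraries tag 3, so in female microglia the transgenes and the batch cannot be told apart.

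The CD11b+ libraries expressed microglial genes but also RNA of other brain cells. The summed level of 12 microglia markers, led by Csf1r, was 12617 to 28774 CPM (counts scaled to a common library total, here by the TMM method within each table) in CD11b+ libraries and 438.0 to 968.9 CPM in cortex, and none of the 12 was at 0. The 8 oligodendrocyte markers, led by Mbp, summed to between 6944 and 74256 CPM in CD11b+ libraries, more than the 3842 to 6498 CPM of cortex. Some CD11b+ libraries stood apart. Mitochondrial genes took 24.5% of the counts of A- mouse 223, which also had the lowest microglia sum and the highest oligodendrocyte and neuron sums. The share was 19.4% in A+/Pki/ki mouse 335, the library with the highest sum of 9 neutrophil markers, and 3.45% to 16.7% in the other female CD11b+ libraries. The number 236 stands both on an A- microglia library and on an A+ cortex library, and both were used as labelled. C4b in the cortex library of mouse 236 was 183.1 CPM, within the 165.7 to 195.2 CPM of the other A+/Pwt/wt cortex libraries and far from the 32.9 CPM of the A- library.

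All 9 genes lie on the minus strand of GRCm38, and in Gencode M21 none shares exon bases with another gene. The C1q chains form a cluster on chromosome 4, with C1qb at chr4:136880129-136886187, C1qc at chr4:136889804-136893065 and C1qa at chr4:136895917-136898803. C3 lies at chr17:57203970-57228136 and C4b at chr17:34728380-34743882. C4b has a near-identical copy, C4a, so reads of the pair may be split or dropped by counting. C4a was at 1.58 ± 0.859 CPM in A+/Pwt/wt cortex and 1.35 ± 0.760 CPM in A+/Pwt/wt microglia (SD, n = 4 each). C3ar1 lies at chr6:122847138-122856161, C5ar1 at chr7:16246743-16259540, Cfp at chrX:20925454-20931555 and Serping1 at chr2:84765387-84775444.

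C1qb and C1qc rose and fell together across the A+ libraries of a tissue, as described further on, so the sequence before the start of each is shown. The stretches are those of RefSeq on GRCm38.p6, minus strand, 5′ to 3′, ending upstream of the annotated gene. That of C1qb is chr4:136886201-136886450 (250 bases). That of C1qc is chr4:136893066-136893164 (99 bases), because its other 151 bases lie inside the gene as Gencode draws it. Capitals mark matches, on either strand, to the PU.1 motif GAGGAAGT or to the shorter ETS core AGGAAG that it contains.
C1qb: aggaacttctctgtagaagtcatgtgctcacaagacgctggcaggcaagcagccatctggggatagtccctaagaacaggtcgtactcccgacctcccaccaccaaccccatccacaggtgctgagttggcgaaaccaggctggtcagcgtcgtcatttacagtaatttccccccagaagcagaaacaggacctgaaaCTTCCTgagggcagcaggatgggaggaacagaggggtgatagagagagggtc
C1qc: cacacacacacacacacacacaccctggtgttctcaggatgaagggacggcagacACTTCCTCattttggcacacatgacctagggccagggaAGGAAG

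In the 250 bases before the start, C1qb held the ETS core 52 bases upstream. C1qc held the PU.1 motif 195 bases upstream, the ETS core 194 and 157 bases upstream, and an NF-kB consensus 41 bases upstream in the stretch not printed. Of 32851 RefSeq mouse promoters of this length, 2.44% held the PU.1 motif, 29.5% the ETS core and 5% the NF-kB consensus. Of the other promoters searched, C3 held the C/EBP motif TTGNGNAA at 70 and 45 bases, a motif found in 11.7% of promoters. C5ar1 held the ETS core at 189, 71 and 67 bases, the C/EBP motif at 157 bases and the IRF motif GAAANNGAA (7.13% of promoters) at 66 bases, all within the 202 bases of its promoter that lie inside the Gencode gene. C3ar1 held a TATA box (TATAAA, 12.4%) at 235 bases, Cfp held none of the motifs, and the STAT motif TTCNNNGAA (7.02%) was in none of the 6 promoters. C1qa, C4b and Serping1 were not in the promoter table.

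The C1q chains were the most abundant of the 9 genes. Per kb of exon, A+/Pwt/wt microglia held 3274 ± 421 CPM of C1qa, 2306 ± 823 CPM of C1qb and 1117 ± 298 CPM of C1qc (SD, n = 4). The ranges of neighbouring chains overlapped. The receptor C3ar1 followed at 41.1 CPM per kb, then C4b at 20.9, C5ar1 at 17.6, C3 at 4.89, Cfp at 3.97 and Serping1 at 3.24, with overlapping ranges between C4b and C5ar1, between C3 and Cfp and between Cfp and Serping1. In A+/Pwt/wt cortex the same scale gave another order after the C1q chains. There C4b stood at 32.0 CPM per kb, above Cfp (3.76), Serping1 (3.31), C3ar1 (1.98), C5ar1 (0.802) and C3 (0.260), and among these only Cfp and Serping1 overlapped.

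**Figure D1:**
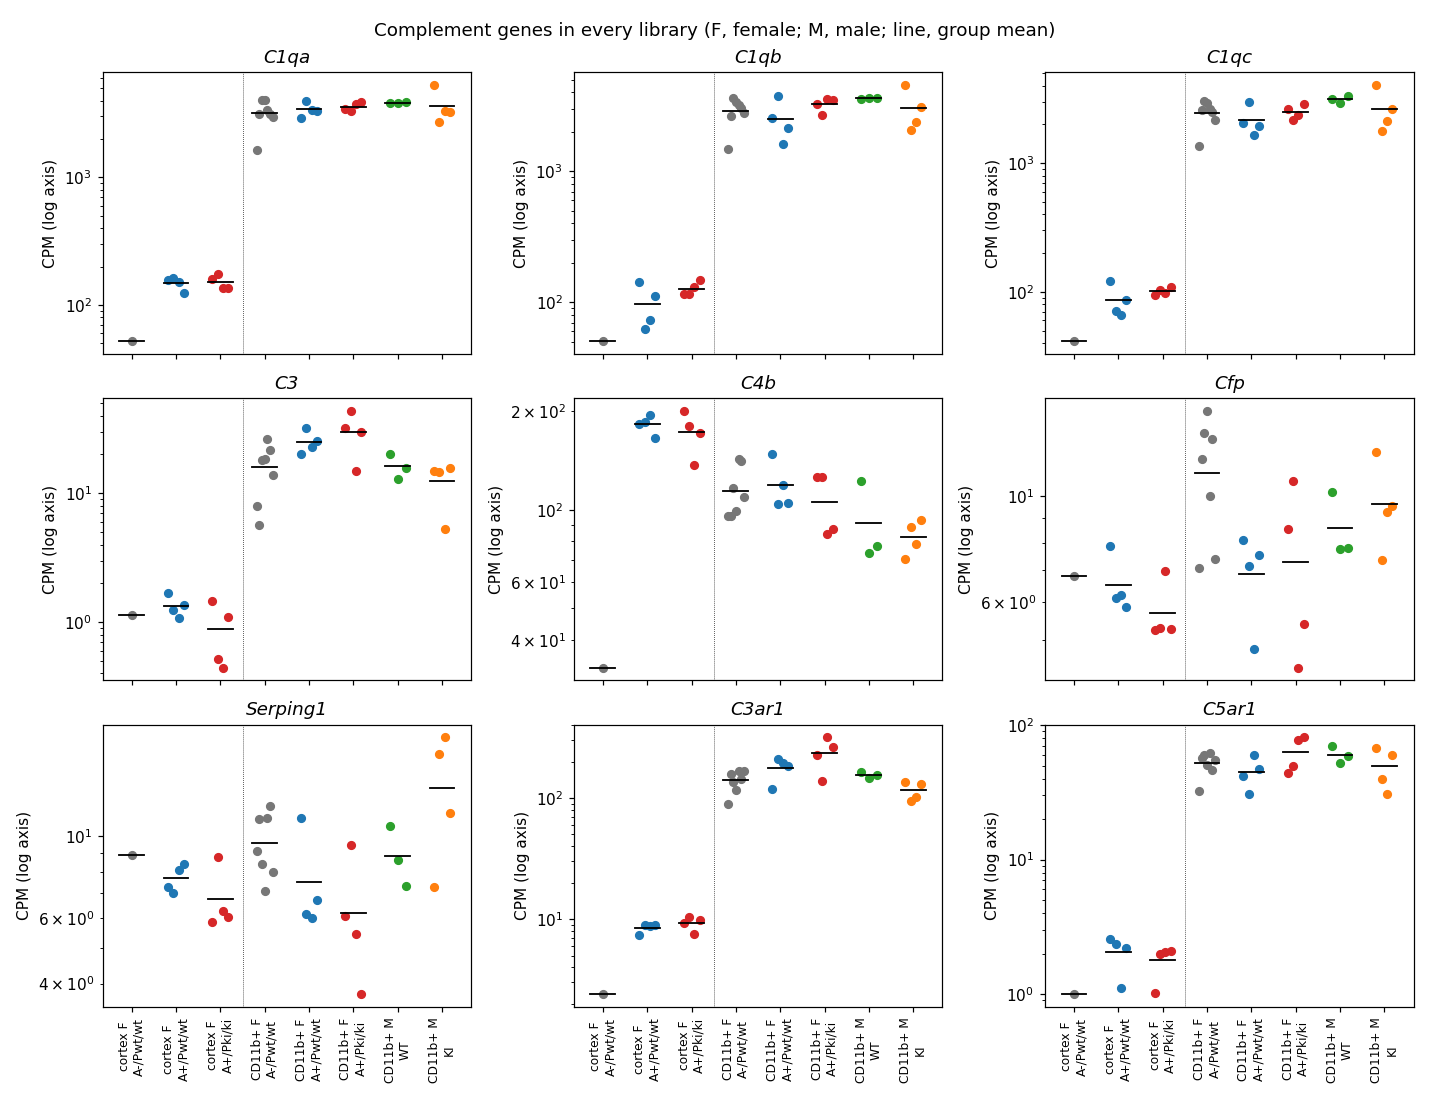
Level of each complement gene in each library (CPM, log axis), with a line at the group mean, for cortex (left of the dotted line) and CD11b+ microglia of females (F) and males (M; WT is A-/Pwt/wt, KI is A-/Pki/ki). CPM were scaled within each of the 3 tables, and C1qa, C1qb, C1qc, C3, C3ar1 and C5ar1 lay far higher in CD11b+ libraries than in cortex.

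To see which genes the CD11b beads enriched, A+/Pwt/wt microglia were set against A+/Pwt/wt cortex, from different mice. The 3 C1q chains, C3 and both anaphylatoxin receptors were higher in microglia, 6 of 9 genes, where 37.7% of the 18541 genes tested were called higher (edgeR's quasi-likelihood test with Benjamini-Hochberg adjustment). On the scale of this fit, C1qa was at 139.5, 145.3, 132.4 and 109.7 CPM in cortex (mice 236, 257, 259 and 329) and at 3288, 4375, 3820 and 3772 CPM in microglia (mice 331, 367, 375 and 380). Its level was 29.0-fold higher in microglia (log2 difference 4.86, SE 0.16, adjusted p = 2.96e-09). The 6 ratios ran from 23.5-fold for C3 to 32.6-fold for C1qb, with C3ar1 at 26.4-fold and C5ar1 at 27.6-fold.

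C4b was not called higher in microglia. On the same scale it was at 162.4, 164.8, 170.8 and 146.7 CPM in cortex and at 166.3, 114.2, 134.7 and 118.8 CPM in microglia, so that 3 of 4 microglia libraries lay below every cortex library. The log2 difference was -0.27 (SE 0.13, adjusted p = 0.0736), and it passed the threshold without microglia mouse 331 (-0.40, adjusted p = 0.00358) and with scaling by library size alone (-0.64, adjusted p = 0.000482). That scaling moved the median log2 difference of all genes from -0.055 to -0.42. Cfp differed by 0.42 (SE 0.18, adjusted p = 0.0566). It passed without cortex mouse 236 (0.51, adjusted p = 0.0378), without microglia mouse 375 (0.56, adjusted p = 0.0116) in DESeq2 (0.43, adjusted p = 0.0335) and without mitochondrial genes (0.44, adjusted p = 0.048), and fell to 0.057 (adjusted p = 0.795) with scaling by library size alone. Serping1 differed by 0.31 (SE 0.21, adjusted p = 0.184), a direction that turned to -0.056 with scaling by library size alone.

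In cortex the transgenes could be judged from a single A- library, so values are given with no test. C4b stood at 32.9 CPM there. It was at 183.1, 185.5, 195.2 and 165.7 CPM in the A+/Pwt/wt libraries and at 200.3, 180.5, 137.0 and 172.2 CPM in the A+/Pki/ki libraries. Every A+ library lay above the A- library, at between 4.16 and 6.08 times its value.

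The C1q chains had smaller gaps. C1qa was at 52.1 CPM in the A- library and at 123.8 to 176.6 CPM in the 8 A+ libraries (median 154.3). C1qb was at 50.5 CPM against 62.3 to 147.8 CPM (median 115.4), and C1qc at 41.3 CPM against 66.3 to 120.7 CPM (median 95.7). The receptor C3ar1 was at 2.41 CPM against 7.33 to 10.5 CPM, a mean ratio of 3.69, and C5ar1 at 1.00 CPM against 1.02 to 2.58 CPM. In all, 6 of 9 genes lay below the 8 A+ libraries, where 14.8% of 15041 genes (mean of 1 CPM or more) did so. Serping1, at 8.90 CPM against 5.86 to 8.77 CPM, lay above all 8, as did 14.1% of genes, and C3 (1.14 CPM) and Cfp (6.82 CPM) lay within the range of the 8. The C3 and C5ar1 values of cortex rest on 18 to 61 and 28 to 94 reads per library.

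The 12 microglia markers moved with these genes, from 438.0 CPM in sum in the A- library to between 774.0 and 968.9 CPM in the A+ libraries. In whole tissue, fewer cells of a type and less RNA per cell cannot be told apart. The 10 astrocyte markers, led by Slc1a2 and with none at 0, also summed to less in the A- library, at 4524 CPM against 4957 to 6091 CPM, and their part in the C4b values was not tested. Taken relative to the mean log2 CPM of the microglia markers, C4b was at 0.25 in the A- library and at 1.48 to 1.93 in the A+ libraries. C3ar1 was at -3.49 against -2.80 to -2.34, and C1qa at 0.91 against 1.31 to 1.66. These 3 genes lay below all 8 A+ libraries on the relative scale too, where 0.951% of genes did so and 93.6% lay above all 8. C1qb (0.86 against 0.04 to 1.56) and C1qc (0.57 against 0.23 to 1.23) did not, since the A+/Pwt/wt libraries of mice 257 and 259 were lower, and C5ar1 was within the range as well (-4.71 against -5.62 to -4.29). C3, Cfp and Serping1 lay above all 8.

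**Figure D2:**
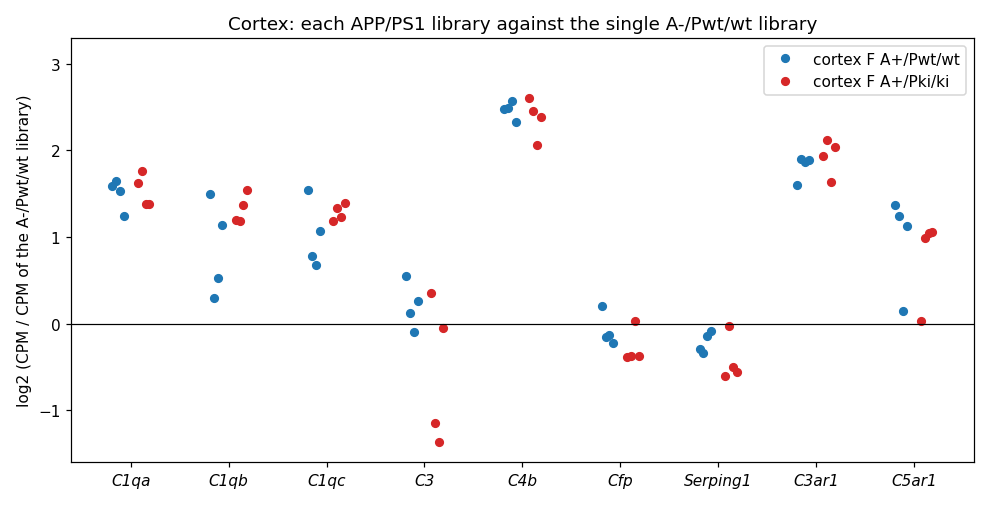
Log2 ratio of each A+ cortex library (points; A+/Pwt/wt and A+/Pki/ki, 4 each) to the single A-/Pwt/wt cortex library, for each complement gene. C4b shows ratios of 4.16 to 6.08 in all 8 libraries, while C3, Cfp and Serping1 scatter about or below 0.

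The ratio of the C1q chains to each other, which does not depend on the scaling of a library, was not the same in every mouse. C1qb to C1qa, as a ratio of counts, was 0.84 to 0.96 in the 7 female A- microglia libraries (median 0.91) and 0.93 to 0.95 in the 3 male A-/Pwt/wt libraries. It was 0.48 in A+/Pwt/wt mouse 375, 0.64 in mouse 380, 0.87 in mouse 331 and 0.93 in mouse 367. The A+/Pki/ki microglia lay between 0.81 and 0.96, with mouse 335 at 0.81, so mice 375 and 380 were the lowest of the female CD11b+ libraries. In males with the KI the ratio was 0.72 in mouse 139, 0.76 in mouse 136, 0.86 in mouse 104 and 0.95 in mouse 84.

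In cortex, taken from other mice, the ratio ran from 0.38 to 1.09, a wider range than the 0.48 to 0.96 of the CD11b+ libraries. The ratio was 0.38 in mouse 257 and 0.48 in mouse 259, against 0.91 in mouse 236 and 0.90 in mouse 329 of the same A+/Pwt/wt group. The A+/Pki/ki libraries stood at 0.65 (mouse 203), 0.72 (mouse 184), 0.96 (mouse 216) and 1.09 (mouse 222), and the A- library at 0.97. C1qc to C1qa was low in the same libraries, at 0.44 in mice 257 and 259 and at 0.49 and 0.58 in mice 375 and 380. The lowest C1qa values of the A+/Pwt/wt groups were in other libraries. In cortex C1qa was 163.5 and 151.3 CPM in mice 257 and 259, beside 157.3 and 123.8 CPM in mice 236 and 329. In microglia it was 3366.5 and 3334.4 CPM in mice 375 and 380, beside 2927.5 and 3989.7 CPM in mice 331 and 367.

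**Figure D3:**
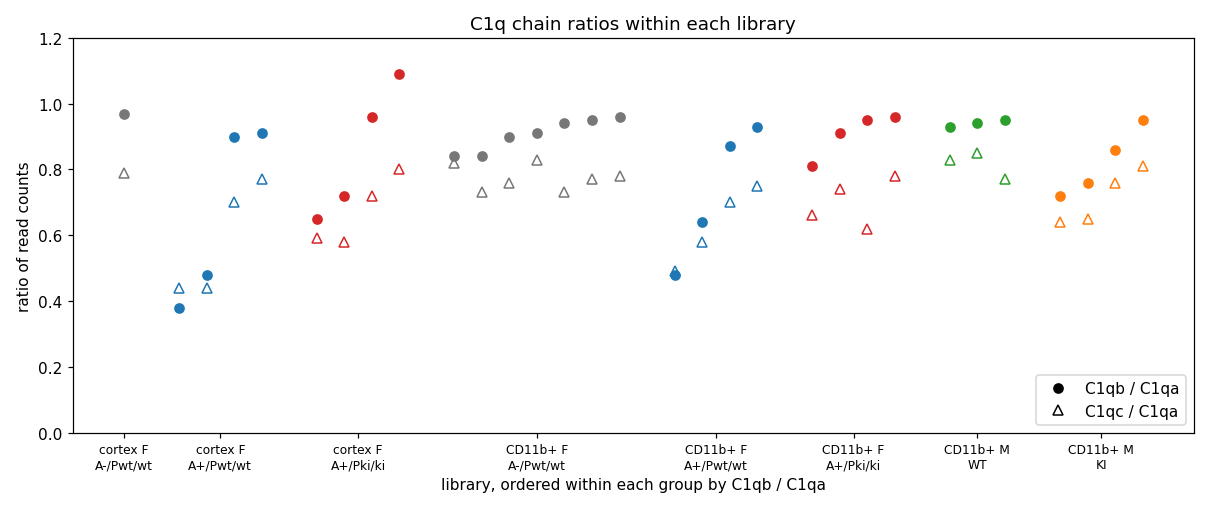
Ratio of C1qb (filled circles) and C1qc (open triangles) counts to C1qa counts in each of the 31 libraries, ordered within each group by the first ratio. In A+/Pwt/wt cortex (mice 257 and 259) and A+/Pwt/wt microglia (mice 375 and 380), 2 libraries each lie apart from the rest of their group for both ratios.

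Over the 8 A+ libraries of a tissue, the log2 levels of C1qb and C1qc had a Pearson r of 0.93 in cortex and 0.94 in microglia, and these points share their 2 PLCG2 genotypes. Mice 257 and 259 in cortex, and mice 375 and 380 in microglia, had the lowest C1qb and C1qc of these libraries. The r without them was not computed. Among 11850 cortex genes averaging 5 CPM or more, C1qc was the 11th gene most like C1qb and C1qb the 4th most like C1qc. Among 11201 such microglia genes, C1qc was the 28th most like C1qb and C1qb the 11th most like C1qc. C1qa had an r with C1qb of -0.30 in cortex and 0.61 in microglia. Dcun1d5 was among the 3 microglia genes most like C1qb (0.988) and most like C1qc (0.970). Slc9a2 was most like C1qb in cortex (0.970), and Metap1d most like C1qc (0.974). With this many genes and only 8 libraries, high r values also arise by chance, here and in the likenesses given below.

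C3, the protein on which the pathways converge, ranged from 14.8 to 43.4 CPM among the A+ microglia. In the A+/Pki/ki group it was at 31.8, 43.4, 14.8 and 29.9 CPM (mice 244, 335, 394 and 405), and in the A+/Pwt/wt group at 20.0, 32.3, 22.9 and 25.3 CPM (mice 331, 367, 375 and 380). The A- microglia ranged from 5.65 to 26.2 CPM with a median of 18 CPM, and the groups overlapped. After Mettl14 (r of 0.978), the gene whose level was most like that of C3 over the 8 A+ microglia libraries was Camp (0.929), a granule peptide of neutrophils, which CD11b beads also capture. Camp was at 116.1 CPM in mouse 335, the library with the highest C3, and at 0.611 CPM in mouse 394, the library with the lowest. Both libraries are among the 8 that gave the r, so these values are no separate evidence.

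The 9 neutrophil markers, led by S100a9, summed to 501.2, 1861, 39.5 and 232.0 CPM in A+/Pki/ki mice 244, 335, 394 and 405. They summed to 45.9, 109.0, 139.0 and 134.9 CPM in A+/Pwt/wt mice 331, 367, 375 and 380, and to 85.6 to 687.8 CPM in the A- microglia. None of the 9 was at 0 in every library of a CD11b+ group, and in cortex they summed to at most 2.07 CPM. C3 did not follow this sum in every library: A+/Pwt/wt mouse 367 had 32.3 CPM of C3 beside a sum of 109.0 CPM, and A- mouse 236 had 18.5 CPM of C3 beside a sum of 687.8 CPM. The part of neutrophil RNA in the C3 level was not tested.

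C4b in female A+ microglia went with genes of other cell types. It was at 125.6, 126.0, 84.1 and 87.5 CPM in A+/Pki/ki mice 244, 335, 394 and 405 and at 148.1, 104.2, 118.7 and 105.0 CPM in A+/Pwt/wt mice 331, 367, 375 and 380. Mice 394 and 405 were the lowest. The genes most like it over these 8 libraries were Mmrn2 (r of 0.996) and Pecam1 (0.989), both endothelial genes, and Mindy1 (0.989). Pecam1 was at 130.5, 126.2, 64.7 and 59.0 CPM in the A+/Pki/ki libraries and at 165.6, 94.3, 115.4 and 92.7 CPM in the A+/Pwt/wt libraries, in the same mouse order. In the male KI libraries of mice 136 and 139 Pecam1 was at 206.5 and 201.7 CPM while C4b was at 88.3 and 78.6 CPM. No likeness was computed over males or A- females. The list of 10 endothelial and mural markers, led by Flt1, summed to 694.4 to 2142 CPM in A+ microglia with none at 0, and its part in the C4b level was not tested. Among A- females, mouse 223 had 95.6 CPM of C4b beside a sum of 1853 CPM, and mouse 243 had 140.5 CPM beside 2004 CPM. In A+ microglia the astrocyte list went with C4b too. It summed to 1224, 1930, 625.2 and 457.3 CPM in A+/Pki/ki mice 244, 335, 394 and 405. In A+/Pwt/wt mice 331, 367, 375 and 380 it summed to 2523, 1114, 1832 and 1016 CPM, while A- mouse 223 had 3060 CPM. The oligodendrocyte sums of A+ microglia were also lowest in mice 394 and 405. The part of these lists in the C4b level was not tested.

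**Figure D4:**
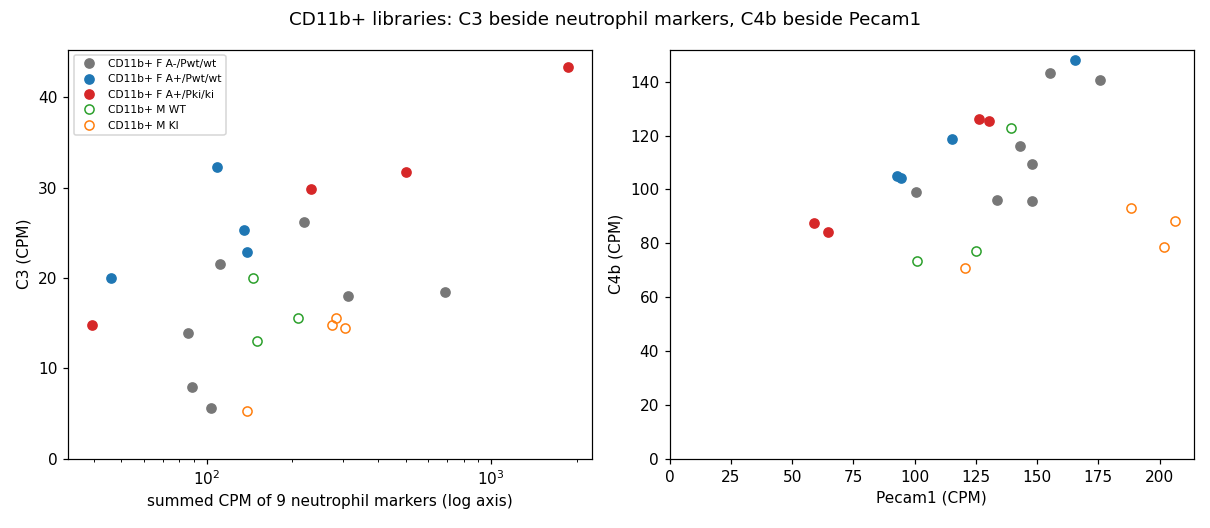
CD11b+ libraries of all 5 groups: C3 (CPM) against the summed CPM of 9 neutrophil markers (log axis, left) and C4b (CPM) against Pecam1 (CPM, right), with open symbols for males. The library with most neutrophil RNA (1861 CPM) has the highest C3 (43.4 CPM), and the female A+ libraries with least Pecam1 (59.0 and 64.7 CPM) have the least C4b (87.5 and 84.1 CPM).

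The KI in APP/PS1 mice was the main question of the study. In female A+ microglia none of the 9 complement genes passed between A+/Pki/ki and A+/Pwt/wt mice, nor did any of 17039 genes (0% called by edgeR's quasi-likelihood test with Benjamini-Hochberg adjustment). At an unadjusted p under 0.05 there were 575 genes and 0 of the 9, and DESeq2 called 7 genes and none of the 9. Without mouse 335 the count at an unadjusted p under 0.05 was 4594 of 16825 genes, with 0 called (smallest adjusted p = 0.0754, edgeR). The median log2 difference of the 9 was 0.16, beside 0.0043 for all genes.

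C3ar1 was at 226.0, 137.8, 316.1 and 261.5 CPM in A+/Pki/ki microglia (mice 244, 335, 394 and 405) and at 117.6, 209.8, 196.2 and 183.5 CPM in A+/Pwt/wt microglia (mice 331, 367, 375 and 380). With mouse 335 low and the other 3 KI libraries above every A+/Pwt/wt library, the log2 difference was 0.35 (SE 0.26), and it ran from 0.18 to 0.56 with single mice left out (mice 394 and 335). The purity of the libraries moved with it. Mice 394 and 405 had the lowest oligodendrocyte sums (6944 and 7121 CPM, against 21937 to 50844 CPM in A+/Pwt/wt) and the highest microglia sums (25066 and 25369 CPM) of the A+ microglia, and mouse 335 had 64442 and 15185 CPM, and the part of this in the C3ar1 values was not tested. C5ar1 was at 44.4, 49.9, 77.5 and 81.1 CPM against 42.2, 31, 60.2 and 47.6 CPM, with a log2 difference of 0.41 (SE 0.26). Its ranges overlapped, and its adjusted p was 0.853 (edgeR). The highest C5ar1 values were again those of mice 394 and 405, and the part of purity in them was not tested. Relative to the mean log2 level of the microglia markers, C5ar1 was at -4.89 to -4.19 in A+/Pki/ki and at -5.40 to -4.19 in A+/Pwt/wt microglia. With single mice left out the C5ar1 difference ran from 0.26 to 0.59.

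C1qb was at 3279, 2684, 3567 and 3514 CPM in A+/Pki/ki microglia and at 2555, 3726, 1624 and 2132 CPM in A+/Pwt/wt microglia, a log2 difference of 0.32 (SE 0.25). That difference ran from 0.16 to 0.56 with single mice left out, and the 2 lowest C1qb values were those of mice 375 and 380. C1qc differed by 0.16 and C1qa, at 3588 ± 273 CPM against 3404 ± 438 CPM (SD, n = 4 each), by 0.018. Serping1 was at 6.09, 9.44, 5.45 and 3.75 CPM against 11.2, 6.16, 6.00 and 6.73 CPM. Mouse 331 stood above all others and mouse 405 below, and the log2 difference was -0.34, which ran from -0.61 to -0.07 with single mice left out (mice 335 and 331). C4b differed by -0.23 and C3 by 0.21, with overlapping ranges. Cfp was at 8.55, 10.8, 4.38 and 5.40 CPM against 8.09, 7.14, 4.79 and 7.54 CPM, a log2 difference of 0.026.

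In A+ cortex the KI also left the 9 genes without a call, as it did all 18640 genes (0% called by edgeR's quasi-likelihood test). At an unadjusted p under 0.05 there were 514 genes and 0 of the 9, and DESeq2 called 11 genes and none of the 9. C1qb showed the highest positive difference. It was at 115.6, 115.3, 130.2 and 147.8 CPM in A+/Pki/ki mice 184, 203, 216 and 222 and at 142.6, 62.3, 73.1 and 110.9 CPM in A+/Pwt/wt mice 236, 257, 259 and 329. The lowest values were those of mice 257 and 259. The log2 difference was 0.38 (SE 0.21, adjusted p = 1 by the same test), and that of C1qc was 0.23 (SE 0.15). With single mice left out, C1qb ran from 0.22 to 0.63 and C1qc from 0.13 to 0.44.

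C3 in cortex was at 1.46, 0.517, 0.444 and 1.10 CPM in A+/Pki/ki and at 1.67, 1.24, 1.07 and 1.37 CPM in A+/Pwt/wt libraries. Mice 203 and 216 lay below the rest, the ranges overlapped, and the log2 difference was -0.64 (SE 0.35). That difference ran from -0.96 to -0.4 with single mice left out. C4b differed by -0.080 (172.5 ± 26.4 against 182.4 ± 12.3 CPM, SD, n = 4 each), C3ar1 by 0.13, C1qa by 0.031, C5ar1 by -0.20, and Cfp and Serping1 each by -0.19.

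The transgenes in female microglia were examined with each PLCG2 genotype against the same 7 A-/Pwt/wt libraries, so the 2 comparisons are not independent, and both coincide with the batch tag. Between A+/Pwt/wt and A- microglia none of the 9 genes passed, where 1.29% of 17355 genes did (edgeR's quasi-likelihood test with Benjamini-Hochberg adjustment). Between A+/Pki/ki and A- microglia none of the 9 passed either, where 1.64% of 17446 genes did. At an unadjusted p under 0.05 these counts were 1 and 3 of the 9 genes, beside 10.1% and 15.2% of all genes. DESeq2 called 0 and 1 of the 9, beside 3.66% and 5.34% of all genes.

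C3ar1 was at 89.5 to 168.1 CPM in the 7 A- libraries, with a median of 142.9 CPM. Its log2 difference to A- was 0.36 (SE 0.20, adjusted p = 0.620) in A+/Pwt/wt and 0.75 (SE 0.22, adjusted p = 0.126, edgeR) in A+/Pki/ki mice. The second difference was 0.74 with an adjusted p of 0.033 in DESeq2, and 0.93 with an adjusted p of 0.0149 in edgeR without mouse 335, where 6.35% of all genes were called. It was 0.58 (adjusted p = 0.463) without mouse 394, and no other mouse left out brought it past the threshold. Relative to the mean log2 level of the 12 microglia markers, C3ar1 was at -3.28 to -2.80 in A- libraries, at -2.77 to -2.49 in A+/Pwt/wt and at -2.72 to -2.21 in A+/Pki/ki libraries. On that scale all A- libraries lay below all 8 A+ libraries, by a gap of only -2.80 to -2.77, as did those of 1.7% of 14662 genes.

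Cfp was at 7.09 to 15.1 CPM in A- microglia (median 12). Its log2 difference was -0.69 (SE 0.24, edgeR adjusted p = 0.271) in A+/Pwt/wt and -0.62 (SE 0.29, adjusted p = 0.337) in A+/Pki/ki mice. C3 differed by 0.67 (SE 0.34, adjusted p = 0.557) and 0.91 (SE 0.38, adjusted p = 0.288). Serping1, at 7.08 to 12 CPM in A- microglia, differed by -0.33 and by -0.63 (SE 0.25, adjusted p = 0.258), and the second value was -0.93 with an adjusted p of 0.0397 without mouse 335. Markers of other cells moved with Cfp and Serping1. The 8 border macrophage markers, led by Mrc1, summed to 272.1 to 623.4 CPM in A- and 194.3 to 316.3 CPM in A+ microglia, and the 7 fibroblast markers to 40.9 to 58.6 CPM and 14.3 to 53.5 CPM, and their part in these values was not tested. C4b, whose mean in A+ cortex was 5.39 times the A- value, was at 95.6 to 143.1 CPM in A- microglia. It differed by 0.071 in A+/Pwt/wt and by -0.11 in A+/Pki/ki mice. The log2 differences of C1qa, C1qb, C1qc and C5ar1 were 0.11, -0.18, -0.17 and -0.19 in A+/Pwt/wt mice, and 0.17, 0.18, 0.035 and 0.28 in A+/Pki/ki mice. In A- mouse 223, the library with the lowest microglia sum, the 3 chains were at 1635, 1487 and 1362 CPM, below every other CD11b+ library.

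In males without the transgenes none of the 9 passed between the KI and wild-type PLCG2, where 16.4% of the 16373 genes did (edgeR's quasi-likelihood test with Benjamini-Hochberg adjustment). At an unadjusted p under 0.05 there was 1 of the 9, C3ar1, beside 33.3% of all genes, and DESeq2 called that gene, beside 22.7% of all genes. C3ar1 was at 156.0, 163.3 and 147.0 CPM in A-/Pwt/wt mice 94, 101 and 102 and at 130.1, 136.3, 93.8 and 102.8 CPM in A-/Pki/ki mice 84, 104, 136 and 139. The KI libraries all lay below the wild-type libraries, which is so, in either direction, for 30.8% of genes. The log2 difference was -0.43 (SE 0.14, adjusted p = 0.0647), with -0.42 (adjusted p = 0.0422) in DESeq2 and -0.22 (adjusted p = 0.227) without mice 136 and 139.

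Mice 136 and 139 were picked, after seeing the data, for the highest neuron marker sums. They were also the KI males with the lowest C3ar1, C1qb, C1qc and C5ar1 and the highest Serping1. The smaller or turned differences of these genes without them follow from the choice, and nothing is drawn from them. Mice 136 and 139 had Serping1 at 16.6 and 18.4 CPM, beside 11.5 and 7.26 CPM in KI mice 84 and 104 and 7.31 to 10.6 CPM in A-/Pwt/wt libraries. The log2 difference of Serping1 was 0.60 (SE 0.30, adjusted p = 0.189), and 0.097 without them. They had C1qb at 2065 and 2370 CPM, beside 3103 and 4574 CPM in the other KI mice and 3561 to 3651 CPM in A-/Pwt/wt libraries. The C1qb difference of -0.26 became 0.092 without them, while without mouse 104 it was -0.52 (adjusted p = 0.0362). Without mouse 104, C1qc (-0.52, adjusted p = 0.0357), C3ar1 (-0.51, adjusted p = 0.0122) and Serping1 (0.81, adjusted p = 0.0177) passed as well. These 4 of 9 stand beside 33.5% of all genes called without that mouse.

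The other members overlapped between the male groups. C3 was at 15.6, 20.0 and 13.0 CPM in A-/Pwt/wt mice 94, 101 and 102 and at 15.6, 14.8, 14.5 and 5.32 CPM in KI mice 84, 104, 136 and 139, with mouse 139 alone below the rest (log2 difference -0.37, SE 0.32). C5ar1 was at 59.5, 69.6 and 52.5 CPM against 60.5, 67.2, 40.1 and 30.7 CPM (-0.28, SE 0.24). The log2 difference was -0.071 for C1qa, -0.24 for C1qc, -0.14 for C4b and 0.17 for Cfp. C1qa ran from 2711 CPM (mouse 136) to 5322 CPM (mouse 104) in KI males, while the 3 wild-type males lay between 3816 and 3865 CPM.

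RNA of other cells differed between these male groups. The 12 neuron markers, led by Camk2a, summed to 205.8 to 301.7 CPM in the A-/Pwt/wt libraries and to 668.2, 816.6, 1313 and 1546 CPM in KI mice 84, 104, 136 and 139. The endothelial and mural list was at 1215 to 1664 CPM against 2276, 1348, 2903 and 2789 CPM, and the microglia list at 27420 to 28774 CPM against 21498, 28231, 16550 and 18211 CPM. None of these markers was at 0 in every library of a group. Mitochondrial genes took 3.97% to 5.02% of counts in A-/Pwt/wt and 7.4% to 12.8% in KI libraries. Relative to the microglia markers, C3ar1 overlapped between the groups (-3.47 to -3.23 against -3.59 to -3.18). The part of these differences in the male results was not tested otherwise.

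Whether the KI acted differently in males and in APP/PS1 females was tested as the difference of the 2 effects, which also holds the differences in sex, transgenes and batch tag. None of the 9 genes and 0 of 17619 genes passed (0%), with 4664 genes and 1 of the 9 at an unadjusted p under 0.05, while DESeq2 called 1136 genes. The gene was C3ar1, at -0.74 (SE 0.33, adjusted p = 0.173 by edgeR's quasi-likelihood test), with 4 of 4 KI males below the wild-type males and 3 of 4 KI females above the A+/Pwt/wt females. Without mouse 335 it was -1.01 (adjusted p = 0.0122), and Serping1 was 1.18 (adjusted p = 0.0498) in place of 0.96 (SE 0.48, adjusted p = 0.211). Without that mouse 35.4% of all genes were called, beside 2 of the 9.

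**Figure D5:**
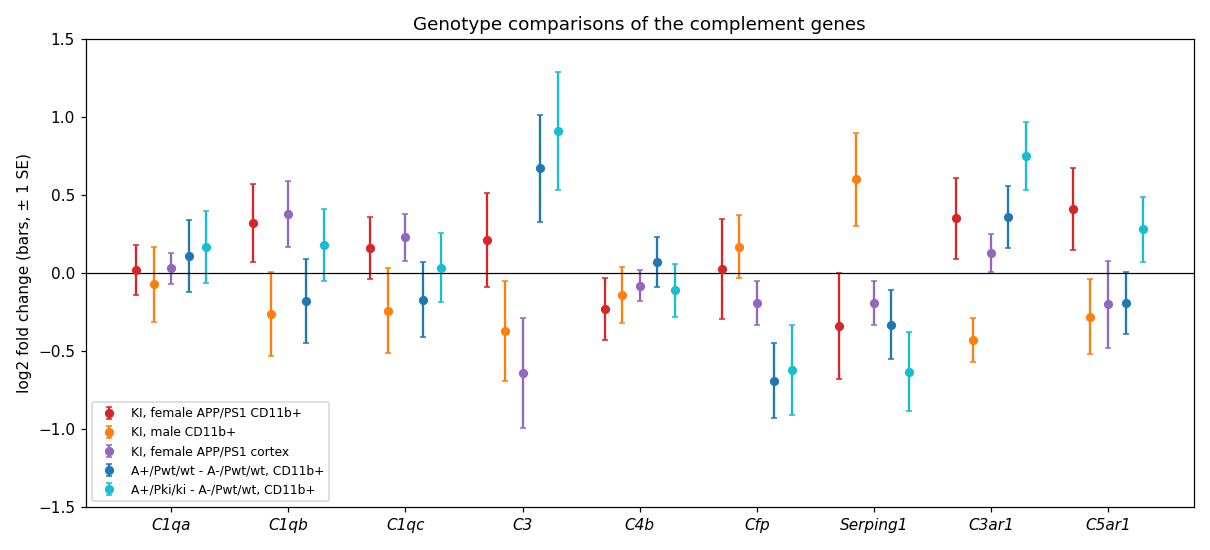
Log2 difference (points, edgeR) with ± 1 SE (bars) for each complement gene in 5 genotype comparisons: the KI in female A+ microglia, male microglia and female A+ cortex, and each A+ group against A- microglia. C3ar1 lies at 0.75 for A+/Pki/ki against A- microglia and at -0.43 for the KI in males, and no value passed the adjusted threshold.

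The rest of the pathway was read from 51 further complement genes, in lists of initiators, alternative and terminal components, regulators, and receptors. For the KI in A+ microglia and in A+ cortex, 0 of the 30 and 0 of the 34 that were tested passed (edgeR). Between A+/Pwt/wt and A- microglia 3 of 31 rose, beside 1.01% of all genes, and none fell. Itgax, the alpha chain of complement receptor 4 and also a gene of the amyloid-responsive list, was at 432.3 ± 178 CPM (n = 4) against 39.8 ± 14.8 CPM (SD, n = 7), a log2 difference of 3.46 (SE 0.33, adjusted p = 0.000179). Masp1, a protease of the lectin pathway, was at 24.8 ± 6.85 against 7.84 ± 1.84 CPM (adjusted p = 0.00182). Colec12, a collectin of the cell surface, was at 54.4 ± 24.3 against 16.4 ± 2.7 CPM (adjusted p = 0.00548).

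Between A+/Pki/ki and A- microglia, Itgax (328.1 ± 97.5 CPM, log2 difference 3.04, adjusted p = 0.000278) and Masp1 (27.4 ± 11 CPM, log2 difference 1.80, adjusted p = 0.00681) rose (n = 4, edgeR), 2 of 31 genes beside 1.35% of all genes. Colec12 was at 28.7 ± 20.6 CPM there. The amyloid-responsive list, led by Cst7 in A+ mice, summed to 234.8 to 554.9 CPM in A- and to 1753 to 3466 CPM in A+ microglia.

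In KI males 5 of 30 pathway genes were higher and 1 was lower (edgeR, adjusted), beside 11.1% higher and 5.26% lower among all genes. All 6 are on the list of regulators, of which 13 were tested. Csmd1 (log2 difference 2.58, adjusted p = 0.0116), Csmd2 (1.83, adjusted p = 0.00779) and Susd4 (1.44, adjusted p = 0.0124) are membrane inhibitors. Clu (0.98, adjusted p = 0.0154) and Vtn (1.22, adjusted p = 0.0416) are secreted inhibitors of the terminal complex, and Vtn is also on the list of endothelial and mural markers. Csmd3 fell by 0.92 on the log2 scale (adjusted p = 0.00428). Csmd1, Csmd2, Susd4 and Clu were lower in A+/Pwt/wt microglia than in cortex, with log2 differences of -5.65, -4.13, -3.12 and -1.35. Vtn (1.13) and Csmd3 (1.02) were higher in microglia than in cortex. The male KI libraries also had more RNA of the neuron list, of the astrocyte list (1063 to 2216 CPM against 618.9 to 780.3 CPM) and of the oligodendrocyte list (26500 to 60464 CPM against 18462 to 23308 CPM). The part of this RNA in the levels of the regulators was not tested.

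Between A+/Pwt/wt microglia and cortex, 19 of 32 pathway genes were higher and 7 lower in microglia, beside 37.7% and 40.2% of all genes. Itgb2 (log2 difference 4.99), the shared beta chain of the complement receptors 3 and 4, and C5ar2 (4.68), the second C5a receptor, had differences about as large as those of the C1q chains. The transcript of the bead target CD11b, Itgam, was at 5.22 and is no finding here. Clu was the most abundant regulator in A+/Pwt/wt cortex, at 1041 ± 81.9 CPM (SD, n = 4). Of the 9 alternative and terminal components, only C8g averaged 1 CPM or more, at 2.5 ± 0.393 CPM in A+/Pwt/wt microglia and 1.67 ± 0.395 CPM in A+/Pwt/wt cortex.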

How the data were processed

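Reads had been trimmed, aligned and counted by the authors with FastQC 0.11.7, Trimmomatic 0.39, STAR 2.7.9a and featureCounts 2.12.0 (with R 4.2.2), as the submitters' processing notes list them, against GRCm38. The deposited raw counts per gene, in 1 table each for cortex, female and male microglia, were used for all tests, and the log2-scale variance-stabilised values that the authors deposited only for a limma alternative. Genes with at least 10 counts in 3 fitted libraries were fitted with edgeR 4.0.16 (TMM scaling, quasi-likelihood test, two-sided, Benjamini-Hochberg threshold 0.05 over all genes tested) in R 4.3.3, with limma 3.58.1 and DESeq2 1.42.0 as alternatives. Levels are CPM scaled by TMM within a table, and the comparison of tissues used a joint scale. Likeness used log2 CPM with a prior count of 2. Lengths and exon overlaps are those of Gencode M21, whereas the authors counted against Gencode M25 of the same build, so both are approximate for the counted gene models. No table column belonged to samples outside the series (0). All 9 genes passed the count filter in every comparison. The 9 genes, and the marker and pathway lists, were chosen with earlier results of these data known. C4a was named as the copy of C4b, and the search for likeness gave Dcun1d5, Slc9a2, Metap1d, Mettl14, Camp, Mmrn2, Pecam1 and Mindy1. The other named genes were the 9, called pathway genes and the most abundant gene of each list. Of the called pathway genes, at most the 6 with the largest change per comparison were named, and the 6 called in KI males were also given between the tissues. A pathway gene that this rule names is not reported here. The fits were checked on simulated data, where changed genes were recovered only in part, least for the difference of KI effects, so a gene that did not pass is not shown to be unchanged.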

Additional observations from a re-analysis of the deposited data

Results flagged for a closer look

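Of 54 sets of values (a gene in a group of 4 or more libraries), 6 held a library whose gap to the nearest other exceeded Dixon's limit, and chance sets apart about 1 in 20 such groups. C3 was 5.32 CPM in male KI mouse 139, beside 14.5 to 15.6 CPM in the others. C3ar1 was 7.33 CPM in A+/Pwt/wt cortex mouse 236, beside 8.79 to 8.98 CPM. In A+/Pki/ki cortex, C5ar1 was 1.02 CPM in mouse 184 (1.98 to 2.09 CPM in the others), Cfp was 6.99 CPM in mouse 216 (5.24 to 5.29 CPM) and Serping1 was 8.77 CPM in mouse 203 (5.86 to 6.29 CPM). Serping1 was 11.2 CPM in A+/Pwt/wt microglia of mouse 331, beside 6.00 to 6.73 CPM, a library that also had the highest C4b and Pecam1 of the A+ microglia.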

How the results depend on the processing

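No paired analysis was possible because the replicate numbers are those of single mice and are not shared between the groups compared. Leaving out each mouse in turn gave 578 of 612 member results with the same direction and side of the threshold, and the other alternatives 418 of 432. The 2 libraries left out together, and the fits without mitochondrial genes, were chosen after seeing the data. Mice 375 and 380, and 257 and 259, were picked for the lowest ratio of C1qb to C1qa and also had the lowest C1qc of their groups. The smaller or turned differences of C1qb and C1qc without them follow from the choice and say nothing of stability. The same holds for C3ar1, C1qb, C1qc, C5ar1 and Serping1 of males without mice 136 and 139, picked for neuron markers but also extreme in these genes. Without mice 375 and 380 C5ar1 went from 0.41 to 0.75, C3ar1 from 0.35 to 0.50 and Serping1 from -0.34 to -0.52. DESeq2 called more genes: 7 (KI, A+ microglia), 11 (KI, A+ cortex), 636 and 932 (A+/Pwt/wt and A+/Pki/ki against A- microglia) and 1136 (difference of KI effects), and 1 of the 9 members both for A+/Pki/ki against A- microglia and for male KI. Without the low-count filter 40 genes were called for KI in A+ cortex, with mice 257 and 259 left out 4, with all groups in 1 fit 510 for A+/Pki/ki against A-, and without mice 136 and 139 922 for male KI. For males, the fit of all groups is the same fit. The cause of these changes was not tested. Over single mice left out, calls ran from 0 to 1 (KI, A+ microglia), 0 to 2 (KI, A+ cortex), 91 to 497 (A+/Pwt/wt against A-), 57 to 1097 (A+/Pki/ki against A-), 894 to 5439 (male KI) and 0 to 6199 (difference of KI effects), and members called from 0 to 2, 0 to 4 and 0 to 2 in the last 3.

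Directions that turned were those of log2 differences of at most 0.31 in size, and some smaller differences did not turn. For KI in A+ microglia Cfp was -0.013 in limma, and without mice 375 and 380 C1qc was -0.03 and Cfp -0.094. For KI in A+ cortex C1qc was -0.033 without mice 257 and 259. For male KI without mice 136 and 139, C1qa was 0.17, C1qb 0.092, C1qc 0.11 and C5ar1 0.082. Serping1 between the tissues was -0.056 by library size alone. With single mice left out, the ranges that crossed 0 were C1qa -0.042 to 0.087, C3 -0.023 to 0.43 and Cfp -0.22 to 0.21 (KI, A+ microglia), C1qa -0.048 to 0.084 and C4b -0.16 to 0.017 (KI, A+ cortex), C1qa -0.017 to 0.18 and C4b -0.062 to 0.13 (A+/Pwt/wt against A-), C1qc -0.056 to 0.093 (A+/Pki/ki against A-), C1qa -0.31 to 0.05 and C4b -0.25 to 0.17 (male KI), and C1qa -0.30 to 0.071, C4b -0.02 to 0.39 and Cfp -0.012 to 0.36 (difference of KI effects). Few mice per group, C3 and C5ar1 counts under 100 reads in cortex, the single A- cortex library, the batch tags of female microglia and the RNA of other cells in CD11b+ libraries limit these comparisons.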
